A study of Mus musculus with 21 samples.

Results

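The regions described here are the sites in mouse hepatocyte chromatin where C/EBPα was found in all 4 of its peak lists, with and without Arid1a, and which lie at the end of a gene. Members were chosen by peak presence and position. The 4 C/EBPα lists were merged wherever peaks shared at least 1 bp, which gave 27244 regions. Of these, 11664 (42.8%) held a peak in every list and are called constant. A constant region is counted as a member when it lies within 1 kb of either annotated end of a protein-coding gene of the RefSeq mouse annotation. There were 2066 members, 17.7% of the constant regions, at the ends of 2189 genes. The remaining 9598 constant regions lie away from gene ends. Neither the presence of peaks in the 4 lists nor the distance to a gene is therefore a finding, and C/EBPα values of members are given as a description without a test.

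The study mapped proteins and a histone mark on hepatocyte chromatin by chromatin immunoprecipitation and sequencing (ChIP-seq), to compare livers with and without Arid1a. Cells were perfused hepatocytes from 90-day-old mice on a mixed C57/B6 and 129 background. KO mice carried floxed Arid1a alleles (Arid1a Fl/Fl) together with Alb-cre, a Cre recombinase driven by the albumin promoter and so active in liver epithelium, chiefly hepatocytes. WT mice carried the same floxed alleles without Cre. A mouse with V5-tagged Arid1a gave 1 library for ARID1A itself, with no replicate. C/EBPα was mapped in 2 KO and 2 WT libraries and H3K4me2 in 3 KO and 3 WT libraries. Each of these 11 samples has 1 list of peaks, and the 10 input samples were not analysed here. No label says whether the libraries of a genotype came from separate animals, so p-values measure the spread between these libraries, which may be technical. Removal of Arid1a cannot be checked in peak lists.

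C/EBPα is a basic leucine zipper transcription factor that binds DNA as a dimer and drives the genes of the differentiated hepatocyte, among them those for plasma proteins and for glucose and amino acid metabolism. ARID1A is a DNA-binding subunit of SWI/SNF complexes, which slide or evict nucleosomes, and in many tissues these complexes sit mostly at enhancers. Histone H3 dimethylated at lysine 4 (H3K4me2) marks promoters and enhancers that are active or poised.

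For C/EBPα, 16178 and 17781 peaks were listed in KO and 17733 and 23646 in WT, and for ARID1A 5726. For H3K4me2 there were 24908, 54544 and 175797 in KO and 34849, 61246 and 49802 in WT. The third KO list stands apart, with the most peaks, the narrowest (median 429 bp) and the lowest median −log10 q (1.14), so the tests on H3K4me2 are also given without it. Numbers of sequencing reads are not given in the sources used here, and depth is therefore unknown. The labelled cell type was checked on H3K4me2. All 10 hepatocyte marker genes had a peak within 1 kb of an end in all 6 lists. Of all protein-coding genes, 50.8% met that rule. It was met by 2 of 15 Kupffer cell and leukocyte, 1 of 12 endothelial and 1 of 12 stellate cell and fibroblast markers. It was also met by 2 of 11 biliary and progenitor markers and 0 of 12 neuronal genes. The contrast was weaker for a peak in at least 1 list. That held at 16185 of all 21887 genes, and at 7 of 15 Kupffer cell and leukocyte and 11 of 12 endothelial markers. It also held at 9 of 12 stellate cell and fibroblast, 10 of 11 biliary and progenitor and 8 of 12 neuronal genes.

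A minority of members lie over promoters with a full C/EBP site, and examples are shown here since these letters were more frequent under members than in other marked promoters. The promoters below belong to listed genes with a member over the gene start whose promoter holds a C/EBP palindrome or a C/EBP-ATF composite site, and they span 150 bases around that match. They are printed 5′ to 3′ on the strand of the gene, from RefSeq, build GRCm38.p6, and capitals mark the match. The first 5 hold the composite site TGATGCAA, here as its reverse complement, which can bind a dimer of a C/EBP with an ATF protein. The other 3 hold the palindrome TTGCGCAA, the full site of a C/EBP dimer.
Atf3: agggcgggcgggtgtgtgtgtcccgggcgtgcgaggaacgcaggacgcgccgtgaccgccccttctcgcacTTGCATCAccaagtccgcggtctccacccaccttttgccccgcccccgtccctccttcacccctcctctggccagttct
Got1: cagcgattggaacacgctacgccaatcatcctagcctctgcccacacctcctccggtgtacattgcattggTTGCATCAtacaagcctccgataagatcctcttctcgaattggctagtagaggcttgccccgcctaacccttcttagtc
Chac1: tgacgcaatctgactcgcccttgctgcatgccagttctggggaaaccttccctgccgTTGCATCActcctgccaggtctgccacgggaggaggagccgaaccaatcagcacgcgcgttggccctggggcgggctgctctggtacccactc
Herpud1: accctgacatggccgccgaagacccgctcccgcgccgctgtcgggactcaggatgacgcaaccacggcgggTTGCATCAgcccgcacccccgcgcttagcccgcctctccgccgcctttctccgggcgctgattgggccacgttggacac
G6pc: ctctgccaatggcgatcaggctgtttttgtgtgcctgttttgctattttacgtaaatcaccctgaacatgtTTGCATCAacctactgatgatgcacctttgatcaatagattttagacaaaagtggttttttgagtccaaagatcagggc
Canx: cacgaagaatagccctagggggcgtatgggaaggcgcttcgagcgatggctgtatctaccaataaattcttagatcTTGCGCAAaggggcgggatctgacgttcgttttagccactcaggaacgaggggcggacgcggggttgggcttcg
Hnrnpa2b1: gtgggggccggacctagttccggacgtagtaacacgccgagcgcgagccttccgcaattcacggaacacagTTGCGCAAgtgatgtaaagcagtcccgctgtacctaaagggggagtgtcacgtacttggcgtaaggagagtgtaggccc
Eif4g1: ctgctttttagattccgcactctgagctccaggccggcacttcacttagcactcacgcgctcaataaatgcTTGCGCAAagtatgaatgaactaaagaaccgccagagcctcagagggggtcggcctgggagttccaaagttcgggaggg

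All 8 matches lie inside the C/EBPα region. Atf3 encodes a stress-induced transcription factor, and its match starts at position -110 from the gene start, in chr1:191183365-191183514 on the minus strand, 111 bp from the mean centre of the 4 peaks. Got1 encodes cytosolic aspartate aminotransferase (chr19:43524629-43524778, minus strand), with its match 26 bp from that centre. Chac1 encodes a glutathione-degrading enzyme induced by ATF4 (chr2:119350992-119351141, plus strand), with its match 13 bp from the centre. Herpud1 encodes a protein of endoplasmic reticulum-associated degradation (chr8:94386246-94386395, plus strand), with its match 5 bp from the centre. G6pc encodes glucose-6-phosphatase, the last step of glucose release (chr11:101367507-101367656, plus strand), and its match also lies 5 bp from the centre. Canx encodes the chaperone calnexin (chr11:50325654-50325803, minus strand), with the palindrome 120 bp from the centre. Hnrnpa2b1 encodes an RNA-binding protein (chr6:51469954-51470103, minus strand), with the palindrome 16 bp from the centre. Eif4g1 encodes a scaffold of translation initiation (chr16:20672499-20672648, plus strand), with the palindrome 13 bp from the centre.

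Members lay mostly at gene starts. The annotation used gives no strand, so a start was told from a 3′ end through the RefSeq promoter table, which covers 17492 of 21887 genes (79.9%). Of the 2066 members, 1310 (63.4%) lay at starts only, 241 (11.7%) at 3′ ends only and 72 (3.48%) at both. A further 390 could not be typed and 53 had both a typed and an untyped end. Among the 1623 members with every end typed, 1382 (85.2%) lay within 1 kb of a start. Members at starts were centred a little upstream of the first base: the median centre was at -43 bp (quartiles -204 and 311 bp), 52.1% lay within 250 bp and 59.1% covered the start itself. The median peak centre was at -47 and -42 bp in the KO lists and at -49 and -46 bp in the WT lists. Members at 3′ ends showed no such peak around the end. Their median centre was at 33 bp, 19.9% lay within 250 bp and 22.0% covered the end.

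**Figure D1:**
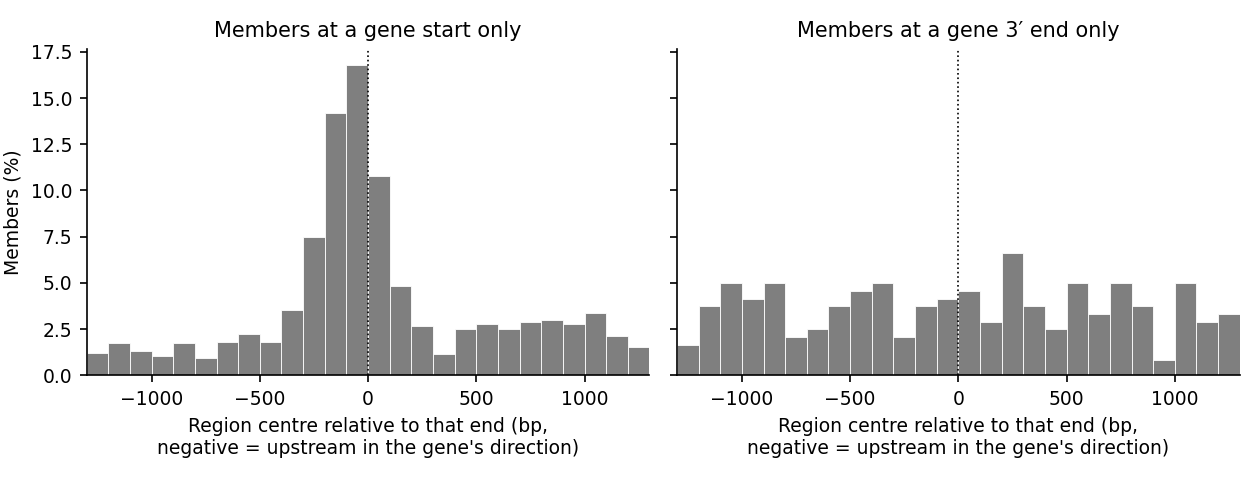
Share of members (%) in 100-bp bins of the distance from the region centre to the gene start (left, 1310 members) or to the 3′ end (right, 241 members), with negative values upstream in the gene's direction. Members at starts gather just upstream of the start, with 52.1% within 250 bp, whereas those at 3′ ends spread over the whole window, with 19.9% within 250 bp.

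Most members belonged to 1 gene: 1765 (85.4%) lay at the ends of 1 gene, 297 (14.4%) at the ends of 2 and 4 at the ends of 3 or more. The region at the ends of most genes lay at Tomm6, Frs3, Prickle4, Gm20517 and Usp49 (chr17:47687615-47688397). A pair of starts on opposite strands lay within 1 kb of 160 members (7.74%), whether divergent or not. Of genes with a member at a typed start, 178 of 1510 (11.8%) had a divergent start within 1 kb upstream, against 1158 of 17492 (6.62%) of all typed genes. The share was 656 of 5691 (11.5%) among genes whose start carried H3K4me2 in all 6 lists but no C/EBPα peak in any list. In the other direction, 171 genes (7.81% of genes with a member) had 2 or more members. In every list 1993 members (96.5%) held a single peak. Another constant region lay within 10 kb of 758 members (36.7%), against 3918 of the constant regions away from gene ends (40.8%).

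The window of 1 kb is a threshold without a gap on either side. The members farthest from their gene were those of Nek4 (999 bp), Ropn1l (995 bp), Tbl1xr1 (993 bp), Tent5c (991 bp) and Eif4a2 (991 bp). The constant regions just outside were near Ttpa (1001 bp), Ifitm3 (1001 bp), Nr0b2 (1002 bp), Apba3 (1003 bp) and Cyp4f15 (1005 bp).

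C/EBP letters were found more often in promoters under members than in other promoters. In all, 16 motifs, read on both strands, were searched in the 300 bases from 250 before to 50 after each start in the table, which held 21238 promoters of protein-coding genes, 1140 of them under a member. The palindrome TTGCGCAA lay in 24 promoters under members (2.11%), against 1 (0.0171%) of the 5862 promoters marked by H3K4me2 in all 6 lists but free of C/EBPα peaks, and 0.221% of all promoters. The looser half-site pair TTGCNNAA, of which each palindrome is also a match, lay in 276 promoters under members (24.2%), against 5% of the marked promoters without C/EBPα and 10.2% of all. The composite TGATGCAA lay in 2.46% of promoters under members, against 0.154% and 0.866%. The half-site pair, the composite, the PAR bZIP site or the CRE described below, in any combination, lay in 334 promoters under members (29.3%), so most held none of these letters in this window. The shares are descriptions with no test. Promoters under the gained gene-end regions, which had C/EBPα in both KO but neither WT library, held the half-site pair in 12.7% and the palindrome in 0 of 228, a count of 0 that still allows a share of up to 1.32%.

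Letters of general promoter factors differed less. The CCAAT box (CCAAT, bound by NF-Y) lay in 49.3% of promoters under members, against 34.5% of marked promoters without C/EBPα and 38.2% of all. The GC box (GGGCGG, bound by SP and KLF proteins) lay in 62.4%, against 68.4% and 46.2%. The cAMP response element TGACGTCA, bound by CREB and ATF proteins, lay in 2.54%, against 3.45% and 2.24%, and the ETS site CCGGAAG in 17.3%, against 20.3% and 11.6%. The E-box CACGTG lay in 10.2%, against 10.9% and 7.84%, the AP-1 site TGANTCA in 4.74%, against 4.03% and 6.99%, and the TATA box TATAAA in 9.04%, against 5.39% and 12.6%. The NRF1 site GCGCATGCG lay in 3.77%, against 4.25% and 2.35%, and the YY1 site AAGATGGCG in 2.19%, against 3.19% and 1.83%. Sites of liver factors were rare, but not all of them differed less. The HNF1 site GTTAATNAT lay in 1.84%, against 0.324% and 0.720%. Its ratio to marked promoters without C/EBPα was 5.68, where the half-site pair had 4.84. The HNF4 site CAAAGTCCA lay in 0.877%, against 0.341% and 0.452%, and the FOX site TGTTTAC in 2.89%, against 2.52% and 3%. The PAR bZIP site TTATGTAA, which C/EBP proteins can also bind, lay in 1.32%, against 0.307% and 0.890%. Promoters under members were rich in CpG. A ratio of observed to expected CpG of 0.6 or more was found in 851 of 1140 (74.6%), against 79.9% of marked promoters without C/EBPα and 47.7% of all promoters.

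The C/EBP letters gathered at the peak centres. In the 946 members with a promoter of the table under them, the half-site pair occurred 2.92 times per kb within 25 bp of the mean peak centre and 0.310 times per kb at 300 to 500 bp. The palindrome occurred 0.408 times per kb within 25 bp (13 matches) and 0 times beyond 150 bp, and the composite 0.345 times per kb within 25 bp (11 matches) and 0 times at 300 to 500 bp. A fall with distance was not confined to C/EBP letters. The CCAAT box had 4.52 matches per kb within 25 bp and 2.47 at 300 to 500 bp. The GC box went the other way, with 3.85 matches per kb within 25 bp and 6.67 at 300 to 500 bp. The CRE showed 0.0942 and 0.0690 matches per kb, from only 3 and 2 matches.

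**Figure D2:**
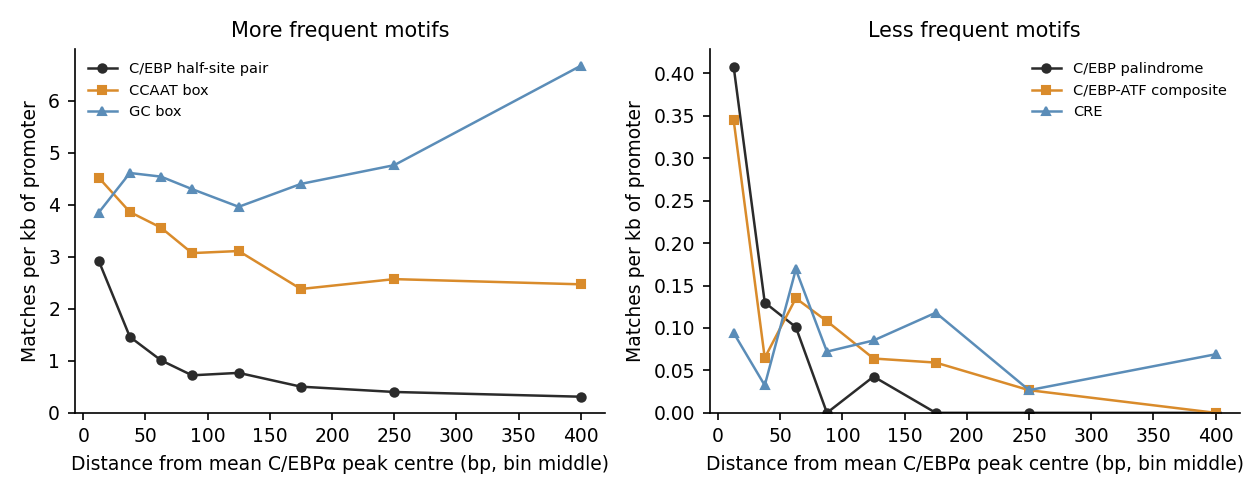
Matches per kb of promoter sequence against distance from the mean C/EBPα peak centre (bp, middle of each distance bin), for 946 members, with the more frequent motifs on the left and the less frequent on the right. The half-site pair drops with distance from 2.92 to 0.310 per kb, the palindrome from 0.408 to 0 and the CCAAT box from 4.52 to 2.47, while the GC box is more frequent away from the centre.

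C/EBPα peaks at members, like those at constant regions away from gene ends, were wider than the typical peak of their lists. The lists hold no peak strength, so width and its percentile within the list stand in for it. The median width of members was 474 and 463 bp in the KO lists and 402 and 428 bp in the WT lists. The median percentile was 64 and 66.5 in KO and 54.2 and 63.9 in WT, where a typical peak stands at 50. Constant regions away from gene ends had 56.0 and 58.9 in KO and 59.7 and 65.7 in WT, so members ranked above them in both KO lists and below them in both WT lists. The median width over all peaks was 421 and 396 bp in the KO lists and 391 and 381 bp in the WT lists, so peaks of middle rank were wider in the KO lists, and widths in bp carry this difference. Both KO percentiles lay above both WT percentiles at 488 members (23.6%), where 14.7% of all constant regions did so, and both lay below at 340 (16.5%), where 27.8% did. At the other 1238 (59.9%) the genotypes overlapped. The median difference of mean percentiles, KO minus WT, was 2.27 points over members and -2.80 points over constant regions away from gene ends. Starts and 3′ ends differed in sign: the median was 3.14 points over members at starts, with 26.0% above and 13.1% below, and -4.42 points over members at 3′ ends, with 12.9% above and 32.8% below. These values come from the lists that chose the members and carry no test.

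The widest members, by the mean percentile over the 4 lists, lay at genes of hepatocyte metabolism and at general genes. Stard5, which encodes a lipid transfer protein, had peaks of 1446 and 1406 bp in the KO lists and of 1134 and 1177 bp in the WT lists (chr7:83631831-83633276). Pck1, which encodes the enzyme that commits the liver to gluconeogenesis, had 1408 and 1278 bp in KO and 1021 and 1176 bp in WT (chr2:173152332-173153739). The shared start region of Mttp, which loads lipid onto apolipoprotein B, and Trmt10a had 1253 and 1196 bp in KO and 1158 and 1257 bp in WT. At Stard5 and Pck1 both KO peaks were wider in bp than both WT peaks, and at Mttp the genotypes overlapped. Width percentiles differed little, with 99.8 and 99.8 in KO and 99.7 and 99.6 in WT at Stard5. At Pck1 they were 99.8 and 99.6 in KO and 99.3 and 99.6 in WT. The others of the 10 widest were regions at G6pc, Lbp, Dnase2b, Cacul1 and Hal, the shared region of Dcakd and Nmt1, and that of Gm20783 and LOC108167694. The G6pc region among them is not the promoter printed above but one centred 1132 bp beyond the 3′ end (chr11:101378375-101379695). It had peaks of 1258 and 1154 bp in KO and of 1305 and 1218 bp in WT.

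Some members had much wider or narrower peaks in KO. At the start of Selenoi, which encodes a phospholipid-synthesis enzyme, peaks were 867 and 758 bp wide in KO and 270 and 277 bp in WT. At the start of Gnmt, which encodes the methyltransferase that clears S-adenosylmethionine, they were 950 and 939 bp wide in KO and 321 and 299 bp in WT. Peaks were also wider in both KO lists at Pxmp4 (611 and 651 bp in KO, 330 and 252 bp in WT), at Nup155 (712 and 472 bp in KO, 306 and 283 bp in WT) and at A1cf (842 and 792 bp in KO, 317 and 365 bp in WT). These 5 lay at starts and carried H3K4me2 in all 6 lists, with no ARID1A peak, where 63.4% of all members lay at starts only, 70.1% carried the mark in all 6 lists and 15% had an ARID1A peak. In the other direction stood Lcn2, which encodes the siderophore-binding protein lipocalin 2, with 278 and 269 bp in KO and 543 and 423 bp in WT. Bola1 had 372 and 262 bp in KO and 607 and 992 bp in WT, and Tut7 had 331 and 299 bp in KO and 696 and 651 bp in WT. Plekhg6 had 304 and 314 bp in KO and 577 and 513 bp in WT, and Pdcd6ip had 320 and 281 bp in KO and 500 and 456 bp in WT. Of these 5, Bola1, Plekhg6 and Pdcd6ip carried H3K4me2 in all 6 lists, and all but Lcn2 lacked an ARID1A peak. In each of these 10 the genotypes did not overlap, which is what ranking by the difference selects.

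H3K4me2 was not used to choose members, and most of them carried it in both genotypes. A peak overlapped 80.4%, 95.0% and 82.3% of members in the KO lists and 92.1%, 96.5% and 87.5% in the WT lists. The second KO list sat within the WT range and the other KO lists below it, so the genotypes overlapped. The KO mean of 85.9% ± 7.92 differed by -6.11 points from the WT mean of 92.0% ± 4.50 (SD, n = 3 each; exact two-sided permutation p = 0.3, where 3 against 3 libraries cannot go below 0.1). One library moves this value: it was -4.32 points without the third KO list (exact permutation p = 0.6), -10.7 without the second KO list, -3.37 without the first and -3.88 without the second WT list. Of the 2 kb around the centre of a member, 54.2%, 81.6% and 59.2% lay in H3K4me2 peaks in KO and 72.1%, 83.0% and 66.2% in WT. Here too the genotypes overlapped, with means of 65.0% ± 14.6 in KO and 73.7% ± 8.51 in WT (SD, n = 3 each; exact permutation p = 0.4). The difference of -8.75 points was -5.86 without the third KO list, -17.0 without the second, -3.35 without the first and -4.14 without the second WT list. A peak missing from a list can mean fewer cells with the mark, less of it per cell or a library of lower depth. These cannot be told apart.

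In all 6 lists at once, 1448 members (70.1%) carried a peak, against 26.7% of all merged regions, and 33 (1.60%) carried one in no list. Within a library, members as a whole carried H3K4me2 more often than constant regions away from gene ends. This did not hold for members at 3′ ends, described below. Those distal regions had a peak in 42.6%, 79.8% and 56.4% of cases in KO and in 69.3%, 85.7% and 64.2% in WT. The difference, members minus distal, was 37.8, 15.2 and 25.9 points in KO and 22.8, 10.8 and 23.3 points in WT. It was positive in 6 of 6 libraries, with a mean of 22.6 ± 9.36 points (SD, n = 6; exact two-sided sign-flip permutation p = 0.0312, the smallest that 6 libraries allow; Benjamini-Hochberg adjusted p = 0.0312 over 12 such tests). Without the third KO list it was 22.0 points (exact p = 0.0625, the smallest 5 libraries allow). The sign flips take the 6 libraries as independent, although deviations of same-numbered KO and WT libraries were positively correlated. Only the second libraries stood above every other pairing. With each same-numbered pair averaged as 1 unit, the difference of members minus distal regions and each of those below that rest on 6 libraries had an exact sign-flip p of 0.25, the smallest that 3 pairs allow, so none passed the threshold in that form. The difference of members minus distal regions was smallest in the second library of each genotype, those with the largest distal share. It averaged 26.3 ± 11.3 points in KO and 18.9 ± 7.07 points in WT (SD, n = 3 each; exact permutation p = 0.4), so a genotype effect on it was not detectable. That KO minus WT value, 7.34 points, was 12.9 without the second KO list, 1.58 without the first and 3.26 without the second WT list.

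Members as a whole also carried H3K4me2 of higher rank where marked. The median percentile of −log10 q within a list was 69.7, 86.4 and 89.7 over marked members in KO and 78.8, 87.5 and 80.9 in WT. The same median over marked distal constant regions was 39.4, 63.6 and 72.8 in KO and 48.0, 67.4 and 55.8 in WT. The gap, 24.3 ± 5.53 points, was positive in 6 of 6 libraries (SD; exact sign-flip permutation p = 0.0312, adjusted p = 0.0312). Without the third KO list it was 25.8 points. The gap did not hold for members at 3′ ends. Their medians were 37.2, 59.3 and 69.1 in KO and 47.5, 63.7 and 55.7 in WT, below the distal value in each library.

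**Figure D3:**
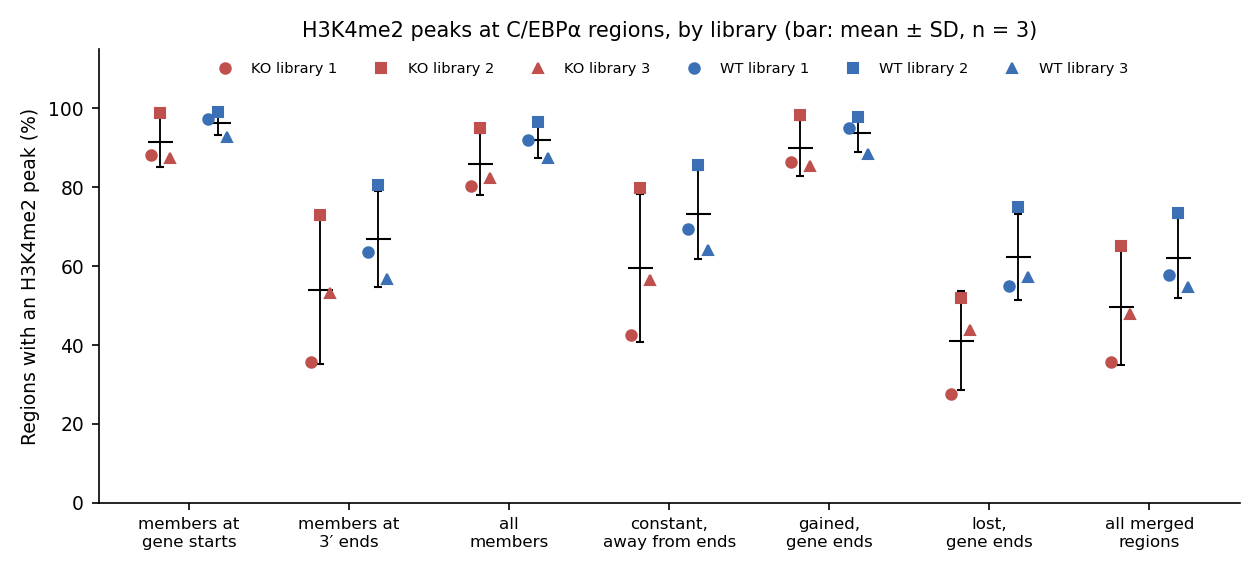
Share of regions (%) with an H3K4me2 peak in each KO and WT library, for members at starts, members at 3′ ends, all members, constant regions away from gene ends, gained and lost regions at gene ends, and all merged regions. Points are libraries and bars are means with SD (n = 3). Members at starts sit highest, between 87.5% and 98.9% in KO and between 92.8% and 99.0% in WT. Members at 3′ ends sit near the distal constant regions and below them in each library.

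Starts and 3′ ends were set apart by the mark. Members at starts had a peak in 88.2%, 98.9% and 87.5% of cases in KO and in 97.3%, 99.0% and 92.8% in WT. Members at 3′ ends had one in 35.7%, 73.0% and 53.1% in KO and in 63.5%, 80.5% and 56.8% in WT. In each library this lay below the share of the constant regions away from gene ends. The difference between starts and 3′ ends was positive in 6 of 6 libraries and averaged 33.5 ± 11.4 points (SD, n = 6; exact sign-flip permutation p = 0.0312, adjusted p = 0.0312), and 33.3 points without the third KO list. Around members at starts the mark was lopsided. In the 200 bp beginning 800 bp downstream of the centre it covered 63.2%, 89.8% and 69.0% of bases in KO and 80.1%, 89.9% and 76.2% in WT. At the mirrored distance upstream it covered 31.0%, 57.6% and 42.3% in KO and 43.7%, 58.4% and 42.5% in WT. Around members at 3′ ends it was highest near the centre and lower on both sides. In the 200 bp just downstream of the centre it covered 25%, 64.3% and 35.6% in KO and 51.0%, 73.2% and 42.4% in WT.

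**Figure D4:**
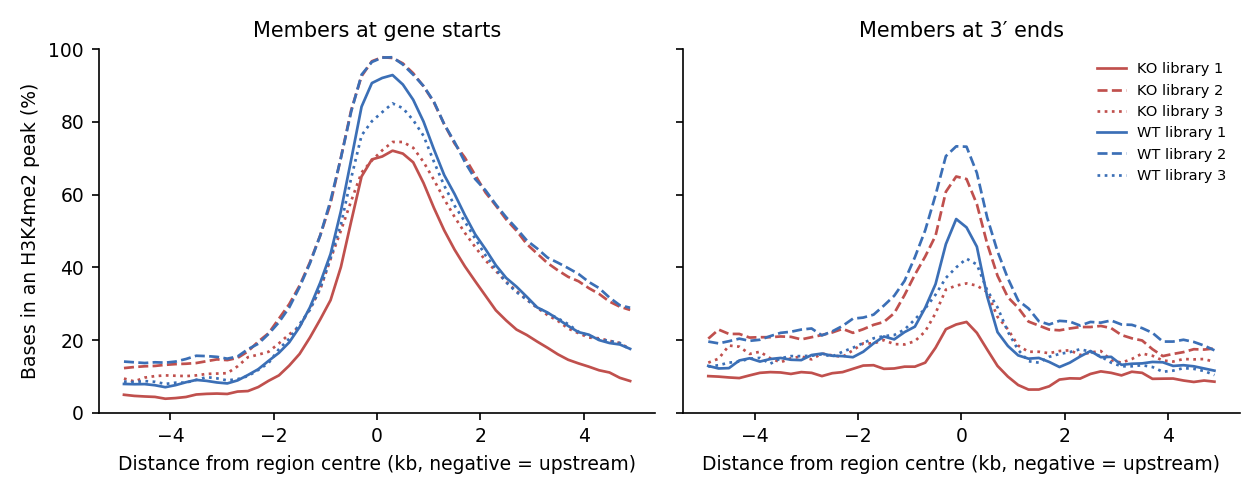
Share of bases (%) inside an H3K4me2 peak in 200-bp bins up to 5 kb from the centre of members at starts (left) and at 3′ ends (right), oriented along the gene, one line per KO and WT library. At starts the cover is highest just downstream and reaches 97.8% in KO library 2 and 97.8% in WT library 2; at 3′ ends it is lower, highest at the centre, and reaches 65.0% in KO library 2 and 73.3% in WT library 2.

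Compared with gene-end regions that changed, members lay closer to the gained ones in H3K4me2. Gained regions at gene ends (287) had an H3K4me2 peak in 86.4%, 98.3% and 85.4% of cases in KO and in 95.1%, 97.9% and 88.5% in WT, and members minus gained regions gave -2.99 ± 1.76 points. Lost regions at gene ends (171), which had C/EBPα in both WT but neither KO library, had one in 27.5%, 52.0% and 43.9% in KO and in 55.0%, 74.9% and 57.3% in WT, and members lay 37.2 ± 10.7 points above them. Both differences had the same sign in 6 of 6 libraries (SD, n = 6; exact sign-flip permutation p = 0.0312, adjusted p = 0.0312 for each). Without the third KO list they were -2.97 and 36.9 points. Where marked, the gap in median −log10 q percentile was smaller: -2.51 ± 0.599 points to gained and 5.73 ± 2.89 points to lost regions (SD, n = 6). Gained and lost regions were not split into starts and 3′ ends, so the part of position in these differences was not tested.

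Few members had H3K4me2 in 1 genotype only. The mark was present in all 3 WT lists and absent from all 3 KO lists at 8 members (0.387%), where 1.25% of all merged regions met that rule. The reverse held at 0 members, where 0.00734% of all merged regions met it, and a count of 0 allows a share of up to 0.145%. The second KO library sets this count: without it 76 members (3.68%) and 6.50% of all merged regions met the first rule. It was 13 members (0.629%) without the third KO library, where 1.85% of all merged regions met the rule. Without the first or the third WT library it was 15 (0.726%), against 2.61% and 2.45% of all merged regions. The 8 members were the 3′ end regions of Atf3, Arid5b, Timm23 and Smim20, the start regions of Lcn2 and Eif4a2, and a pair at 9130401M01Rik. Lcn2 was the 1 listed acute phase gene among them, and it was also among the 5 members with the lowest KO minus WT difference in width percentile. Its region, chr2:32387629-32388171, held an ARID1A peak of 456 bp.

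Where the mark was present in all 6 lists, its rank varied widely. Among the highest mean percentiles were those of a pair of regions at Hjurp (99.1 each), which encodes the chaperone of the centromeric histone, of Utp6 (98.1) and of Mblac2 (98). The lowest were those of Tcp1 (36.9), C4b (38.7), Zfp750 (41.8), Ldha (42.2) and Clec7a (43.0). The Hjurp region farther from the gene held the widest C/EBPα peaks in the KO lists among the regions named here, 2094 and 1774 bp, against 1395 and 778 bp in WT. C/EBPα peaks at Utp6 were narrow, 295 and 313 bp in KO and 277 and 303 bp in WT, although the mark ranked high there.

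ARID1A was found at fewer members than distal constant regions. An ARID1A peak overlapped 309 members (15%, exact binomial 95% interval 13.4 to 16.6), where 17.2% of all merged regions had one, and 3290 distal constant regions (34.3%, 33.3 to 35.2). It overlapped 9 of 287 gained regions at gene ends (3.14%, 1.44 to 5.87) and 11 of 171 lost ones (6.43%, 3.25 to 11.2). Among members the share was 12.1% at starts (10.4 to 14.0), 29.0% at 3′ ends (23.4 to 35.2) and 7.64% at the ends of 2 or more genes (4.91 to 11.2). Intervals cover counting of regions only, and ARID1A has 1 library, so no difference was tested. Promoters under members with an ARID1A peak were poorer in CpG: 43 of 100 (43.0%) reached a CpG ratio of 0.6, against 77.7% of the 1040 without one. The GC box lay in 41.0% of the first and 64.4% of the second, the ETS site in 3% and 18.7%, and the HNF1 site in 7.00% and 1.35%.

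The widest ARID1A peaks at members lay at Pck1 (980 bp) and beyond the 3′ end of G6pc (964 bp), which were also among the 10 members with the widest C/EBPα peaks. Next came Acot3 (890 bp), Hbs1l (795 bp) and the region shared by the 3′ ends of Gys1, a glycogen synthase, and Ftl1, a ferritin light chain (794 bp). H3K4me2 overlapped the Pck1 region in all 6 lists. The region beyond G6pc had the mark in 2 KO lists and in 0 WT lists, although the G6pc promoter had it in 2 KO and 3 WT lists.

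Members were frequent in most lists of hepatocyte genes. Over 30 lists of genes, the share of genes with a member ranged up to 74.4%, against 10% of all 21887 protein-coding genes, and no list was tested. An end carried H3K4me2 in all 6 lists at 50.8% of all genes, and 2022 of those 11122 genes (18.2%) had a member. Secreted plasma, complement and coagulation proteins had a member at 29 of 39 genes (74.4%), with H3K4me2 at an end in all 6 lists at 38. Acute phase proteins, which the liver secretes in inflammation, had one at 11 of 16 (68.8%), with such H3K4me2 at 9. Urea cycle and amino acid breakdown had one at 14 of 27 (51.9%), lipid and cholesterol synthesis at 11 of 24 (45.8%), bile acid synthesis and transport at 6 of 17 (35.3%) and glucose metabolism at 8 of 23 (34.8%). Hepatocyte transcription factors had one at 6 of 20 (30.0%), apolipoproteins and lipoprotein assembly at 6 of 21 (28.6%), cytochrome P450 and conjugation enzymes at 7 of 26 (26.9%) and fatty acid oxidation at 4 of 23 (17.4%). The fatty acid oxidation share lay a little below the 18.2% of marked genes, and 19 of its 23 genes carried H3K4me2 at an end in all 6 lists.

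Rapidly regulated genes had members as often as several metabolic lists. Immediate early and stress response genes had one at 17 of 28 (60.7%), the circadian clock at 11 of 19 (57.9%), and the integrated stress and unfolded protein responses at 16 of 33 (48.5%). Translation factors had one at 11 of 25 (44.0%), autophagy and lysosome genes at 9 of 26 (34.6%), splicing and RNA-binding genes at 8 of 26 (30.8%), and iron and redox genes and growth restraint genes at 6 of 27 each (22.2%). Ribosomal proteins had one at 5 of 30 (16.7%), proteasome and mitochondrial respiration genes at 4 of 26 each (15.4%), RNA polymerase II and general factors at 3 of 26 (11.5%), SWI/SNF subunits at 2 of 21 (9.52%) and cell cycle genes at 3 of 33 (9.09%). At all 30 ribosomal and all 26 proteasome genes an end carried H3K4me2 in all 6 lists, and both shares lay a little below the 18.2% of marked genes. Markers of other cells had few members: Flt1 of 12 endothelial, Gpc3 of 11 biliary and progenitor, and 0 of 12 stellate, 0 of 15 Kupffer and leukocyte and 0 of 12 neuronal genes, against 5 of 10 hepatocyte markers. In lists this short a count of 0 allows a share of up to 25% of 12 genes or 20% of 15.

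**Figure D5:**
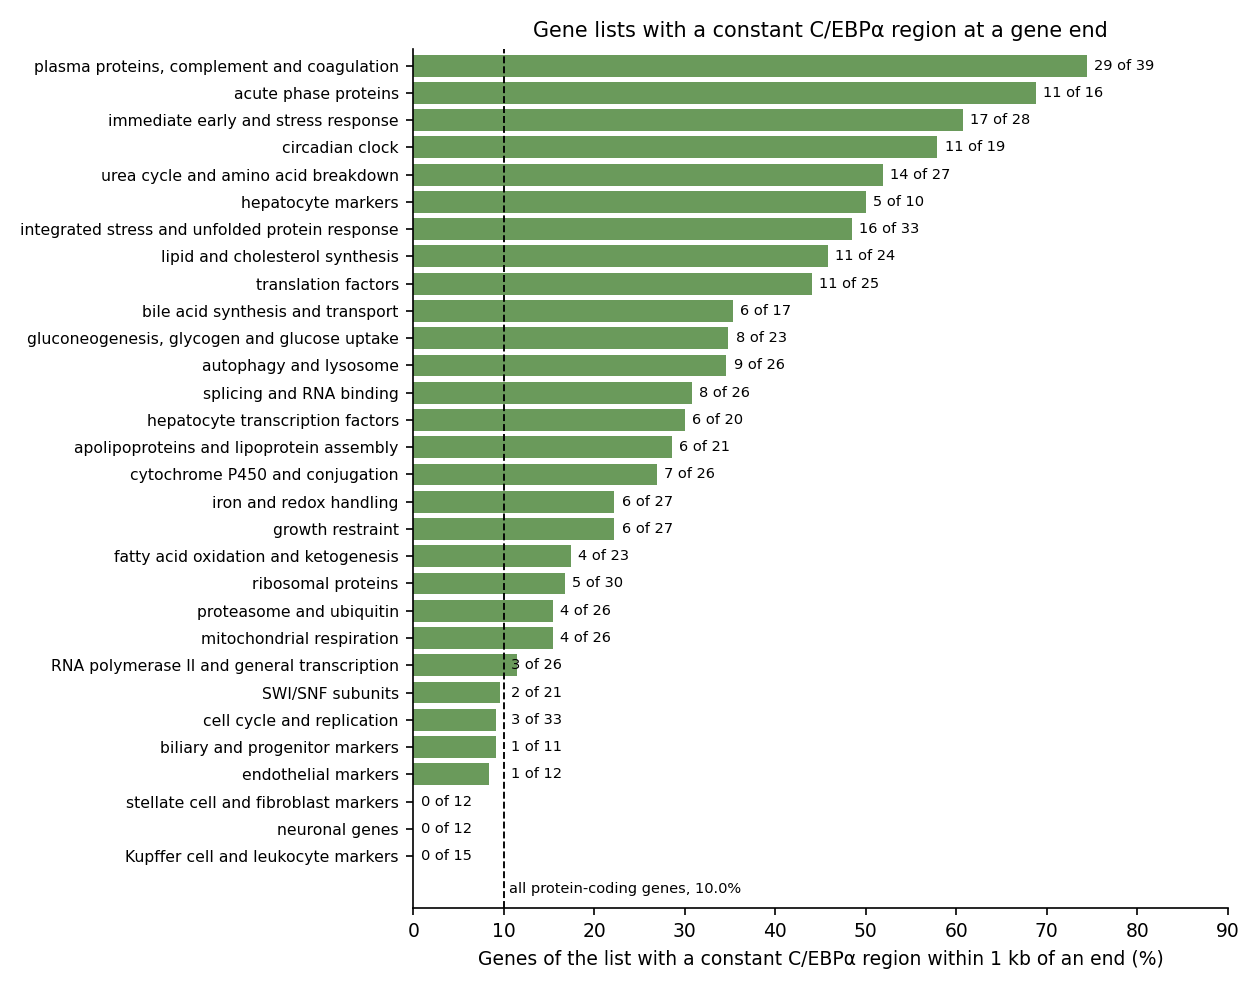
Share of the genes of each list (%) with a constant C/EBPα region within 1 kb of an end, with the number of genes beside each bar, and the share over all protein-coding genes (10%) as a dashed line. Plasma protein genes are highest with 29 of 39, and stellate, neuronal and Kupffer cell lists have 0.

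Plasma protein genes held some of the widest peaks. Over their 37 members the median of the mean width percentile was 85.3, against 60.4 over all members, and the median KO minus WT difference was -0.5 points, against 2.3. At the start of Alb, the gene for albumin, peaks were 584 and 846 bp wide in KO and 608 and 792 bp in WT (chr5:90460509-90461363), so the genotypes overlapped. At the start of Rbp4, the retinol carrier, they were 1150 and 1152 bp in KO and 1083 and 984 bp in WT, and at the Plg region, for plasminogen, 999 and 954 bp in KO and 1121 and 943 bp in WT. Width percentiles overlapped at Rbp4, with 99.1 and 99.1 in KO and 99.5 and 98.8 in WT. The fibrinogen genes Fga, Fgb and Fgg had members at their starts, with 922 and 852 bp in KO and 776 and 717 bp in WT at Fga. The width percentiles of Fga also overlapped, with 96.7 and 96.0 in KO and 96.7 and 94.3 in WT. Coagulation factors F2, F5, F7, F9, F10, F11 and F12 had members, and 1 region served the neighbours F7 and F10, with 1100 and 1068 bp in KO and 1135 and 1087 bp in WT. Complement genes included C3 at its start (828 and 836 bp in KO, 634 and 717 bp in WT) and C6, with 417 and 459 bp in KO and 680 and 660 bp in WT. ARID1A lay at 13 of the 37 members, where 15% of all members and 17.2% of all merged regions had a peak. They were members of Ahsg, C3, C6, C8b, C9, Cfb, F10, F11, Itih1 and Trf.

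Acute phase genes were mixed between genotypes. Over their 11 members the median KO minus WT difference in width percentile was -6.7 points. Peaks at Orm2, which encodes an acid glycoprotein, were 289 and 312 bp wide in KO and 433 and 444 bp in WT, and its neighbour Orm1 had 381 and 435 bp in KO and 498 and 481 bp in WT. Hamp, the gene for the iron hormone hepcidin, had 334 and 396 bp in KO and 388 and 775 bp in WT, where the genotypes overlap. Serpina3n, a protease inhibitor, went the other way with 638 and 677 bp in KO and 284 and 507 bp in WT. Crp, for C-reactive protein, had 1342 and 1205 bp in KO and 812 and 1219 bp in WT, and Lbp, for the lipopolysaccharide-binding protein, had 1214 and 1276 bp in KO and 1096 and 1160 bp in WT. In width percentile the KO peaks of Lbp ranked no higher, with 99.4 and 99.5 in KO and 99.6 and 99.6 in WT. H3K4me2 lay at the Orm2 region in 0 KO and 2 WT lists, at Orm1 and Hamp in 1 KO and 3 WT lists, and at Serpina3n, Crp and Lbp in all 6. ARID1A peaks lay at 6 of the 11 members, those of Lcn2, Orm1, Orm2, Hp, Crp and Serpina3n, where 15% of all members had one.

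Members of most metabolic lists were wide as well. The median of the mean width percentile was 86.3 over the 9 members of glucose metabolism, 83.2 over the 18 of urea cycle and amino acid breakdown, 82.9 over the 11 of lipid synthesis, 79.9 over the 9 of apolipoproteins, 78.7 over the 8 of cytochrome P450 and conjugation and 74.7 over the 7 of bile acids. It was 56.2 over the 5 of fatty acid oxidation, below the 60.4 of all members. Hal, for the enzyme that opens histidine breakdown, had 1135 and 1156 bp in KO and 1077 and 1045 bp in WT at its start, and a pair of further members at its 3′ end. The width percentiles at its start were 99.0 and 99.2 in KO and 99.5 and 99.2 in WT, so KO did not rank higher. Mat1a, for liver methionine adenosyltransferase, had 1054 and 1070 bp in KO and 906 and 1059 bp in WT. Gpt2, an alanine aminotransferase, had 1073 and 1085 bp in KO and 317 and 751 bp in WT. At the G6pc promoter printed above, peaks were 501 and 767 bp wide in KO and 311 and 363 bp in WT, and at Got1 800 and 1095 bp in KO and 731 and 742 bp in WT, with both KO peaks the wider in bp at each. By width percentile the genotypes overlapped at Got1, with 93.8 and 98.8 in KO and 95.5 and 95.1 in WT. At Fbp1, another enzyme of gluconeogenesis, they were 751 and 674 bp in KO and 431 and 585 bp in WT. Of lipid genes, Elovl5 and Elovl6, which lengthen fatty acids, had 830 and 881 bp and 841 and 901 bp in KO and 744 and 803 bp and 693 and 646 bp in WT. Width percentiles overlapped at Elovl5, with 94.7 and 96.5 in KO and 95.9 and 96.5 in WT. Sqle, an enzyme of cholesterol synthesis, had 558 and 425 bp in KO and 294 and 284 bp in WT, and Insig2, which holds back sterol synthesis, had 410 and 324 bp in KO and 528 and 872 bp in WT. Apob had a member over its start with 465 and 473 bp in KO and 282 and 284 bp in WT, and another centred 975 bp downstream with 452 and 483 bp in KO and 413 and 424 bp in WT. At the downstream region the width percentiles overlapped, with 58.6 and 70.3 in KO and 57.8 and 62.8 in WT. Over the 7 members of bile acid genes the median KO minus WT difference in width percentile was -7.7 points. It was 39.6 points at Slc10a1, a bile acid importer, and negative at Cyp27a1 (-20), Baat (-15.5) and Klb (-11.8).

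Regulators included the factor's own family. Cebpa had a member centred 135 bp before its start, with peaks of 454 and 393 bp in KO and 423 and 313 bp in WT (chr7:35118932-35119385). Cebpb had members at its start (1293 and 645 bp in KO, 399 and 569 bp in WT) and its 3′ end (435 and 517 bp in KO, 288 and 348 bp in WT), and Cebpg had 769 and 840 bp in KO and 747 and 686 bp in WT. Width percentiles overlapped at Cebpg, with 92.6 and 95.7 in KO and 96.0 and 93.1 in WT. Foxa2 and Nr5a2 also had members. Of the clock, Per1 had 1118 and 1081 bp in KO and 1072 and 1100 bp in WT, Dbp had 927 and 787 bp in KO and 1075 and 834 bp in WT, and Cry1 had 810 and 441 bp in KO and 275 and 332 bp in WT. The median KO minus WT difference over the 12 clock members was 11.2 points, and the genotypes overlapped at Per1 and Dbp. Clock, Per2, Cry2, Nfil3, Bhlhe40, Bhlhe41 and Ciart also had members.

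The stress lists differed in how many of their members lay at typed starts. The 19 members of the integrated stress and unfolded protein response list carried the mark in all 6 lists at 18, 16 lay at typed starts, and 1 had an ARID1A peak, that of Sesn2. Ddit3, which encodes CHOP, had a pair of members, and the one nearer the start had 513 and 719 bp in KO and 507 and 656 bp in WT. Chac1 had 705 and 660 bp in KO and 516 and 482 bp in WT, and Herpud1 had 563 and 611 bp in KO and 477 and 468 bp in WT at the promoter printed above. Canx had 703 and 610 bp in KO and 629 and 679 bp in WT, where the genotypes overlapped. Atf4, the central factor of the response, had 438 and 424 bp in KO and 402 and 379 bp in WT. Of immediate early genes, the Atf3 promoter had 917 and 1021 bp in KO and 946 and 1011 bp in WT, with H3K4me2 in all 6 lists and an ARID1A peak of 556 bp, in contrast to its 3′ end region above. Zfp36, which encodes an mRNA-decay factor, had 611 and 452 bp in KO and 292 and 307 bp in WT. Over the 19 members of the immediate early list, 8 lay at typed starts, 12 carried H3K4me2 in all 6 lists and 5 had an ARID1A peak. Of all members, 63.4% lay at starts only, 70.1% carried the mark in all 6 lists and 15% had an ARID1A peak. Members with an untyped end are not counted at typed starts. They were more frequent in the immediate early list, so part of its lower count may come from missing strands.

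Housekeeping lists lay on both sides of all members in width. The median of the mean width percentile was 40.3 over the 10 members of autophagy and lysosome genes, 46.0 over the 9 of splicing genes, 46.3 over the 3 of RNA polymerase II and general factors and 60 over the 12 of translation factors, against 60.4 over all members. It was 60.8 over the 4 of mitochondrial respiration, 63.7 over the 5 of ribosomal proteins and 72.8 over the 4 of the proteasome. Eif4g1 had peaks of 426 and 360 bp in KO and 348 and 387 bp in WT and an ARID1A peak of 266 bp. Hnrnpa2b1 had 542 and 517 bp in KO and 502 and 499 bp in WT, with H3K4me2 in 1 KO list and 3 WT lists. Its width percentiles went the other way, with 75.8 and 75.7 in KO and 79.3 and 77.8 in WT. Of SWI/SNF subunits, Arid1b, the paralogue of Arid1a, had 453 and 418 bp in KO and 338 and 418 bp in WT, and the ATPase Smarca2 had 443 and 461 bp in KO and 356 and 416 bp in WT. Width percentiles overlapped at Smarca2, with 56.3 and 66.1 in KO and 35.2 and 60.6 in WT. Of growth restraint genes, Lats2 had 978 and 997 bp in KO and 887 and 963 bp in WT. In width percentile its KO peaks ranked below its WT peaks, with 97.6 and 98.1 in KO and 98.4 and 98.6 in WT. Cdk4, Mcm3 and Pcna were the cell cycle genes with a member, and each carried H3K4me2 in all 6 lists.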

How the data were processed

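Per the labels, C/EBPα, H3K4me2 and V5-tagged ARID1A were mapped by ChIP-seq in perfused mouse hepatocytes, and C/EBPα and V5 libraries were made with another kit than H3K4me2 libraries, so targets were compared only as overlaps. Named in the submitters' processing notes, with no roles, are MACS2 (2.0.10.20131216), Bowtie2 (2.2.3), HOMER and Picard, and mm10 as the build. The deposited C/EBPα and V5 lists hold coordinates only; their peak numbers have gaps that leave 40.0% to 40.1% of the highest number in each, and the filter behind this is not stated there. The deposited H3K4me2 lists give per broad peak a score, a fold enrichment (ratio) over background, and −log10 p and −log10 q values from the authors' peak caller. These depend on the depth of a library, so −log10 q was used to rank peaks within a list and, in 1 alternative, as a common threshold. The score and fold were not used.

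Peaks were merged, and gene ends were taken from RefSeq GRCm38, with Python 3.11.15, numpy 2.4.6, pandas 2.3.3 and SciPy 1.17.1. Overlap means at least 1 bp. A list's width or −log10 q percentile ranks a peak among all peaks of that list, and a region takes its widest or strongest peak. Genotypes were compared with exact two-sided permutations of the 6 H3K4me2 libraries, and sets of regions with exact sign flips of the differences within libraries, at a threshold of 0.05. Code was tested on simulated peak lists. Members, gene lists, motifs and tests were chosen with earlier results of these data known, and the comparisons of starts with 3′ ends and of members with gained and lost regions were added after the lists were seen. Of 676 listed genes, 673 were in the annotation. Motifs were searched in the promoters of the RefSeq table; promoters on chromosome 18 were not used here.

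The text names listed genes with a member, the 10 widest members, the 5 with the largest and 5 with the smallest KO minus WT width percentile, the 5 highest and 5 lowest in H3K4me2 rank among those marked in all 6 lists, those with H3K4me2 in 1 genotype only, the 5 with the widest ARID1A peak, those nearest to the 1 kb limit on either side, and that at the ends of most genes. A few genes that this rule names are not reported here. Printed promoters are 8 of the 12 that the rule for promoters gives, and the other 4 hold a CRE.

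Deviations of same-numbered KO and WT H3K4me2 libraries were positively correlated, but only number 2 stood above every other pair. Over the 2 kb around 27244 regions, the correlation of their deviations from the genotype means was 0.192, 0.427 and 0.119 for numbers 1, 2 and 3, and between -0.387 and 0.252 for other pairs, so the numbers were treated as pairs in an alternative fit. The pairing comes from these data, since no label gives a shared day or batch.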

Additional observations from a re-analysis of the deposited data

How the results depend on the processing

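The number of members was 4029 with a 5 kb window and within 1.5 times of 2066 under the other 7 alternatives, between 1593 (500 bp window) and 2496; leaving out a C/EBPα library gave 2111 to 2496. The KO minus WT differences in H3K4me2 share and cover of members were negative under all 11 alternatives each, which could not pass the threshold, since 3 against 3 libraries or fewer allow no p below 0.1. Leaving out a library gave -10.7 to -3.37 points for the share and -17.0 to -3.35 points for the cover. With the replicate block the share was -6.11 points, the cover -8.75 and the genotype difference of members minus distal regions 7.34. With the same pairs averaged, members minus distal regions gave 22.6 points in share and 24.3 in rank, starts minus 3′ ends 33.5, and members minus gained and lost regions -2.99 and 37.2. Each had an exact p of 0.25, the smallest 3 pairs allow, so the paired tests could not pass the threshold and show nothing about stability. Members minus distal regions kept an exact p of 0.0312 under 4 alternatives. Leaving out a library gave 19.6 to 25 points in share and 23.0 to 25.8 in rank, 29.7 to 36.5 for starts minus 3′ ends, -3.38 to -2.38 for members minus gained and 34.0 to 40.3 for members minus lost regions, each with an exact p of 0.0625, the smallest 5 libraries allow. The genotype difference of members minus distal regions reversed to -0.723 points with equal numbers of the strongest peaks per list (exact p = 0.8), and leaving out a library gave 1.58 to 12.9 points; the cause was not tested.

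Members marked in every WT list and no KO list numbered 5 when 50% of the region had to be covered. They numbered 8 to 76 (0.387% to 3.68%) when a library was left out, against 1.38% to 6.50% of all merged regions. Members marked in every KO list and no WT list numbered 1 with equal numbers of peaks and 0 to 3 when a library was left out. With a library left out, 0.0220% to 0.437% of all merged regions met that rule. The ARID1A share was 8.62% with peaks at least as wide as the list median, since that removes peaks, and was within its interval under the other 2 alternatives. Pair averages, and leave-one-out for the rank and for the comparisons of starts with 3′ ends and of members with gained and lost regions, were chosen after seeing the data. Read depth is unknown, so a missing peak is not absence of the factor or mark.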

Other observations

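Members were not spread evenly over chromosomes. They made up 27.1% of the constant regions on chromosome 7 (175 of 645), 23.6% on chromosome 17 (106 of 450) and 23.4% on chromosome 11 (181 of 773), against 12.8% on chromosome 18 (49 of 383) and 13% on chromosome 16 (60 of 462). Gene density was not set beside these shares.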
